A study of Mus musculus with 40 samples.

Results

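The 9 genes described here were followed through all RNA-seq libraries of a mouse study of TDP-43, an RNA-binding protein, in the oocyte and the early embryo. They are *Wbp5*, *Ctag2*, *1190002F15Rik* and *B4galt4*, which stood higher, and *Pmm2*, *Ankmy2*, *Gm3286*, *Yif1a* and *Usp22*, which stood lower, in late 2-cell (L2C) embryos of the libraries titled KD than in those titled NC. They are 9 of 24056 genes with values. They were chosen by the difference between these 2 KD and 2 NC libraries, so that difference is given as a description and with no test. What was measured apart from it is the course of the same genes in 20 other libraries, 10 from oocytes and embryos of females that lose *Tdp43* in the oocyte and 10 from their controls.

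The study asked what maternal TDP-43 does when the embryonic genome is switched on. In the first experiment, *Tdp43* oKO females (*Tdp43* flox/flox;Zp3-Cre) were compared with control females (*Tdp43* flox/flox). The Zp3 promoter drives Cre in growing oocytes, so exon 3 of *Tdp43* is removed there. Oocytes and embryos came from females of 7 to 8 weeks on a mixed C57BL/6J and ICR background. For embryos the females were mated with fertile ICR males. Collection was 48 h after PMSG for full-grown oocytes (FGO). MII oocytes, late 1-cell (1C), early 2-cell (E2C) and L2C embryos were taken 13, 30, 36 and 48 h after HCG. In the second experiment, 1-cell embryos of the KD group received mRNA for mCherry-Trim21 and a rabbit antibody against TDP-43, which sends the bound protein to degradation (Trim-away). The injection control, titled NC, received the same mRNA with normal rabbit IgG, and both were cultured to L2C, 48 h after HCG. Each of the 12 groups had 2 libraries, each a pool of 20 oocytes or embryos.

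The genotype tags of the 4 injected libraries go against their titles: those titled KD are tagged as wild type and those titled NC as knockdown. The groups follow the titles, and every sign of KD against injection control would turn round if the tags were right. Among genes of the 2-cell stage, *Zscan4c* stood at 163 and 148 FPKM in libraries titled KD against at most 24.2 FPKM in injection controls, and at 54.1 and 46.7 FPKM in oKO L2C against 3.34 and 4.25 FPKM in floxed controls, so by the titles both experiments have the same direction for it. *Zfp352* was likewise higher in libraries titled KD (52.8 and 48.6 FPKM, above both injection controls) and in oKO L2C (90.3 and 76.3 FPKM against 15.7 and 10.4 FPKM). Trim-away acts on protein, so the *Tardbp* mRNA (the TDP-43 transcript, 3.65 and 3.85 FPKM in libraries titled KD and 5.29 and 5.95 FPKM in injection controls) is no check of the labels. *Trim21* stood at 44.5 to 57.8 FPKM in the 4 injected libraries and at 0 to 0.106 FPKM in the other 20, so the libraries of injected embryos are marked as the titles have it. FPKM are fragments scaled by transcript length and by all mapped fragments of a library.

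TDP-43 binds RNA and DNA and acts in transcription, splicing and RNA stability. Early mouse embryos live on RNA stored by the oocyte, which is cleared while transcription starts, weakly in the 1-cell embryo and broadly in the 2-cell embryo. A gene may therefore be high at L2C because its stored RNA is kept or because it is newly transcribed, and bulk RNA levels do not tell these apart. Nor can fewer cells with a transcript and less RNA per cell be told apart in these pools.

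The members have no common function. *B4galt4* encodes a Golgi galactosyltransferase that adds galactose to N-acetylglucosamine, and *Pmm2* the phosphomannomutase that makes mannose 1-phosphate for N-glycosylation. *Yif1a* is a membrane protein of transport between the endoplasmic reticulum (ER) and the Golgi. *Usp22* is the deubiquitinase of the SAGA coactivator complex, which acts on histone H2B. *Ankmy2* is an ankyrin repeat and MYND domain protein, needed in mouse for adenylyl cyclases to reach the primary cilium. *Wbp5*, named *Tceal9* in RefSeq, is a small protein of the Tceal and Bex family on chromosome X. *Ctag2*, also on X, belongs to the family of cancer/testis antigens that includes the KEOPS subunit *Lage3*. *1190002F15Rik*, named *Lockd* in RefSeq, is a long non-coding RNA on chromosome 6 next to *Cdkn1b*, an inhibitor of cyclin-dependent kinases. *Gm3286* is annotated as a protein-coding gene and has no role named here.

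In mm9, the build of the files, Gencode places *Ctag2* at chrX:62300819-62302189 and *Wbp5* at chrX:132779618-132781678. *B4galt4* lies at chr16:38742377-38769162 and *Pmm2* at chr16:8637767-8657624 on the same chromosome. *Ankmy2* lies at chr12:36883711-36923878, *Yif1a* at chr19:5088553-5092856, *Usp22* at chr11:60965287-60988557 and *Gm3286* at chr5:95947714-95951416. *Gm3286* has 5 other genes whose transcripts share at least 98.953% identity with it over at least 50% of its length, and the closest, *D5Ertd577e*, shares 99.844%. Reads of such copies can be split between them, so the level of *Gm3286* is uncertain. No other of the 7 members searched had a gene of 90% identity.

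The RefSeq table of GRCm38.p6 holds a promoter for 7 of the 9 members (*Usp22* and *Gm3286* are not listed). The 250 bases before the start are printed for *Wbp5*, which was higher at L2C in oKO as in the libraries titled KD, and for *Pmm2*, *Ankmy2* and *Yif1a*, which were lower in both, so that the promoters of genes that moved alike can be set against the one that moved otherwise. Capitals mark matches on either strand to GGGCGG, a GC box, and to CCAAT.
Wbp5 chrX:136244830-136245079 + strand: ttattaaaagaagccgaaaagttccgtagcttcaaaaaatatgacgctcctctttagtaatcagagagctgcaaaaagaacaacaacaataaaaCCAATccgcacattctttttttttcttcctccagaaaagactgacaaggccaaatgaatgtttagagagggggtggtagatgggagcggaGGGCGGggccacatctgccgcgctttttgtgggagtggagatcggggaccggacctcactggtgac
Pmm2 chr16:8637457-8637706 + strand: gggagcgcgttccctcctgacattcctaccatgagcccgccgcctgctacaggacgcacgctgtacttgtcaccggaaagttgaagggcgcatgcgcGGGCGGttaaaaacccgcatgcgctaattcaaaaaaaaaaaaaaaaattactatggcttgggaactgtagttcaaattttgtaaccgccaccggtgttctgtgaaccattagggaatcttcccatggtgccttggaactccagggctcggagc
Ankmy2 chr12:36156874-36157123 + strand: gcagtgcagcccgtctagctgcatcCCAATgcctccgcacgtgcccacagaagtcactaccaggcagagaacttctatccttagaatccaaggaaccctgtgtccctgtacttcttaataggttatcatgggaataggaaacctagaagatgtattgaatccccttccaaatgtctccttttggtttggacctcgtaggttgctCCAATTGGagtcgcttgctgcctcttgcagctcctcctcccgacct
Yif1a chr19:5088288-5088537 + strand: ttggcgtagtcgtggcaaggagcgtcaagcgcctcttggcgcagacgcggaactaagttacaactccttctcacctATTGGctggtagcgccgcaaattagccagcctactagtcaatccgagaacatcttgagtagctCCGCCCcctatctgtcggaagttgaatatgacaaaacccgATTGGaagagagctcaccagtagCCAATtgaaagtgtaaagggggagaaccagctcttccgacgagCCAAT
The 4 stretches differ in what they hold. *Wbp5* and *Yif1a* have both motifs, *Pmm2* the GC box alone and *Ankmy2* CCAAT alone, in its second place with overlapping matches on both strands. Of 27025 promoters of the same length, 32.9% hold GGGCGG and 34.5% hold CCAAT on either strand. GGGCGG is present in 6 of the 7 listed members and CCAAT in 5. None of the 7 holds TATAAA (13.0% of all promoters) or TGTGTG (17.7%), which reads in DNA like the UG repeats that TDP-43 binds in RNA. CpG number 10 in *Wbp5*, 16 in *Pmm2*, 6 in *Ankmy2* and 15 in *Yif1a*, where the median promoter has 6. A match is a description of the letters only.

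*Wbp5* had the largest difference of all genes ranked between libraries titled KD and injection controls. It stood at 43.3 and 26.5 FPKM in the libraries titled KD, against 0.497 and 0.706 FPKM in the injection controls, a ratio of means of 58.0. *Ctag2* stood at 10.6 and 11.3 FPKM in the libraries titled KD and was listed at 0 in both injection controls, so it has no fold. The non-coding RNA *1190002F15Rik* had 18.0 and 7.94 FPKM against 1.08 and 0.612 FPKM in injection controls, a ratio of 15.3. For *B4galt4* the libraries titled KD had 31.7 and 23.0 FPKM and the injection controls 1.81 and 4.65 FPKM, a ratio of 8.47. The groups do not overlap for any of these 4 genes, which is what the choice of members asks for.

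The decreases spanned ratios of 4.98 to 11.3, injection control over KD. *Pmm2* was at 0.538 and 1.45 FPKM in the libraries titled KD, against 15.3 and 7.25 FPKM in injection controls, where the mean was 11.3 times as high. *Ankmy2* was at 2.04 and 3.44 FPKM against 22.3 and 13.1 FPKM in injection controls, 6.47 times as high there. For both genes the 2 injection controls differ from each other by more than the libraries titled KD do in FPKM, yet the groups stay apart. *Yif1a* had 3.91 and 6.19 FPKM in the libraries titled KD and 30.1 and 22.0 FPKM in injection controls. Of these 5 genes *Usp22* had the closest replicates, 2.79 and 2.91 FPKM against 17.9 and 14.5 FPKM in injection controls. *Gm3286* had 11.6 and 15.2 FPKM in the libraries titled KD and 84.6 and 49.2 FPKM in injection controls, the highest level among the 9.

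By log2(FPKM + 1), over 4099 genes with a mean of at least 5 FPKM in the 4 libraries, the 4 increases hold ranks 1 to 4. Their differences run down to 2.81 for *B4galt4*, and the first gene outside has 2.78. The 5 decreases hold ranks 2 to 6, with *Pmm2* at -2.58, *Ankmy2* at -2.30, *Gm3286* at -2.20, *Yif1a* at -2.17 and *Usp22* at -2.15. The first gene below them has -2.15 as well, and rank 1, at -2.98, is held by a gene that is not among the members. In a model of all 24 libraries, 15.4% of 8100 genes tested differed between libraries titled KD and injection controls by 2-fold or more with an adjusted p up to 0.05, 7.43% being higher and 7.99% lower. Nothing is read from this for the members, which were chosen by that difference.

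**Figure D1:**
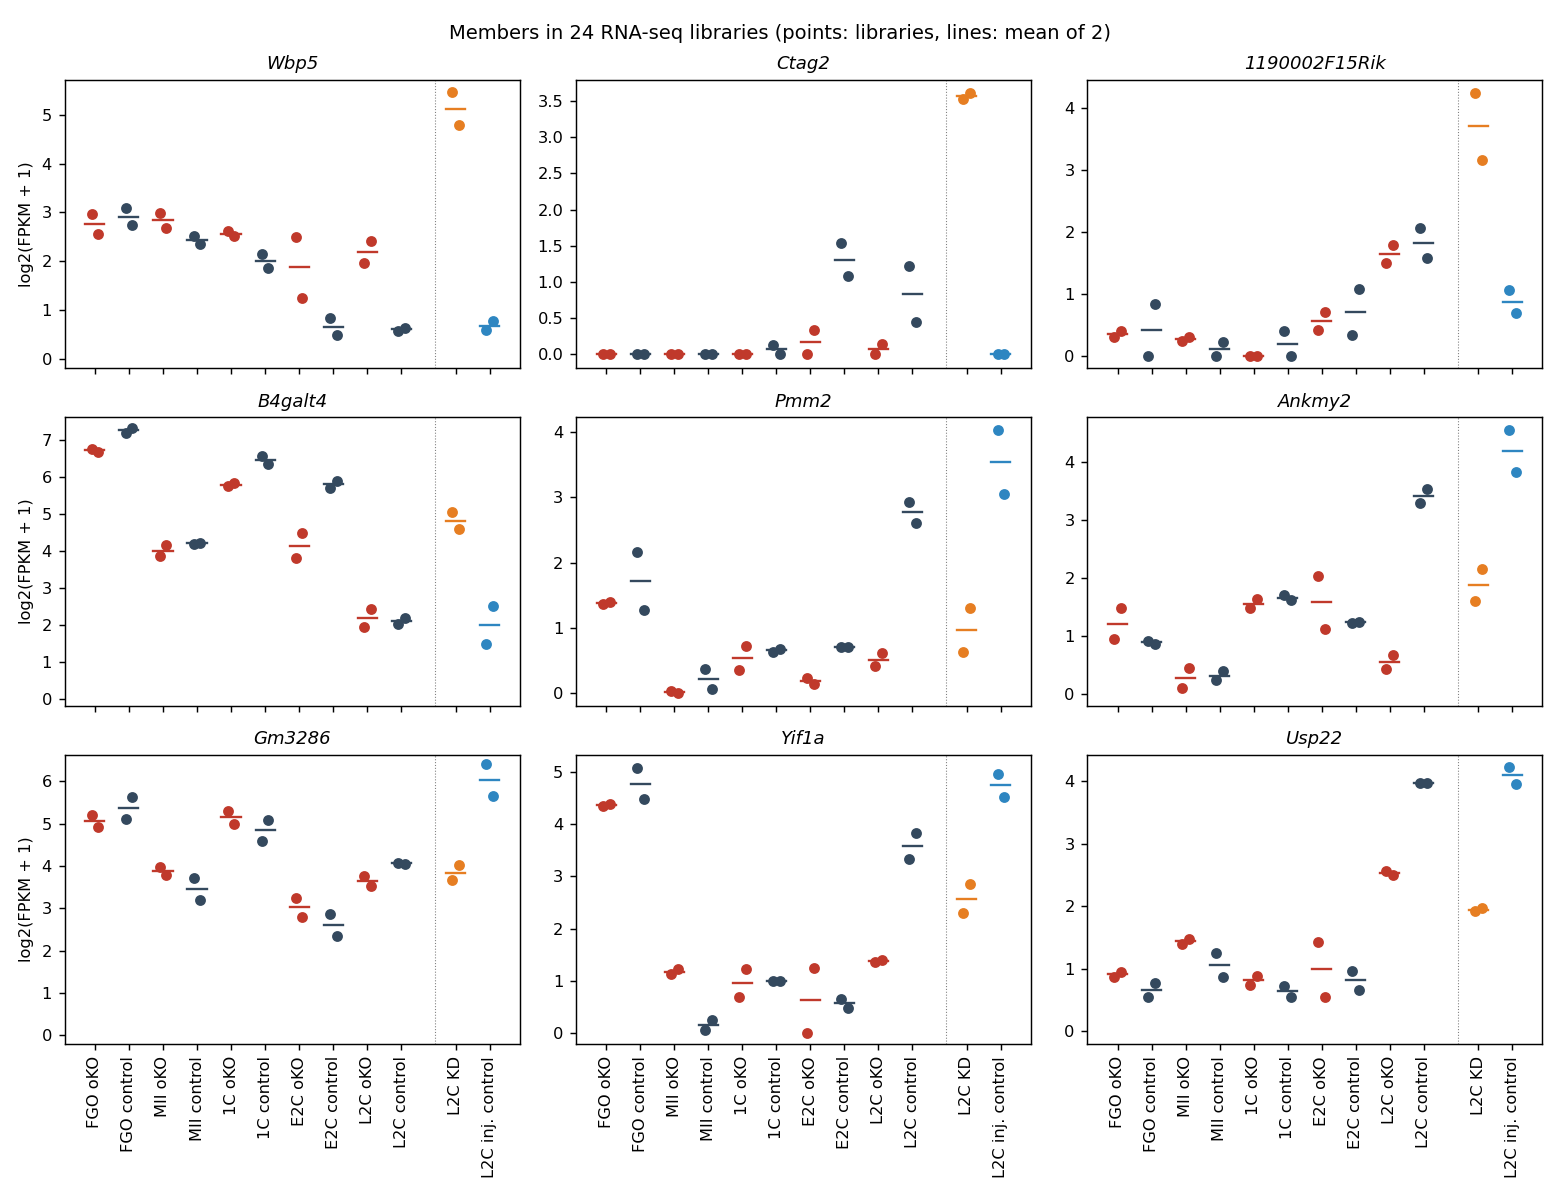
Level of the 9 members in all 24 libraries as log2(FPKM + 1) on the vertical axis of each panel, which has its own scale. Points are libraries and lines the mean of 2, with oKO in red, control in dark grey, libraries titled KD in orange and injection control in blue. Wbp5, Ctag2 and 1190002F15Rik are higher in the KD libraries than in any other group, while B4galt4 is far higher in full-grown oocytes.

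The plot of all libraries shows where the KD levels lie within the range of each gene. *Wbp5* did not pass 7.45 FPKM in the 20 libraries of the oKO experiment, *Ctag2* not 1.90 FPKM and *1190002F15Rik* not 3.21 FPKM, so for these 3 genes both libraries titled KD exceeded every library of every other stage. *B4galt4* differs from them. Its highest level was 158 FPKM, in a control FGO library, and its level in the libraries titled KD was below that of control E2C (50.9 and 58.5 FPKM).

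The floxed L2C controls of the first experiment can be set beside both sides of the Trim-away comparison. This is a description only, since the values of that comparison chose the members. The share of all genes with each order was not counted. The injection controls of *Wbp5*, *B4galt4* and *Usp22* overlapped the floxed controls (*Usp22* 17.9 and 14.5 FPKM in injection controls, against 14.7 and 14.8 FPKM in floxed controls). For these genes the libraries titled KD lay outside both kinds of control. *Gm3286* had another order. Its injection controls were 4.26 times as high as the floxed controls (15.9 and 15.5 FPKM), while its KD mean was 0.855 of the floxed mean. Both libraries titled KD were below both floxed controls, by a narrow gap. Injection controls were also above floxed controls for *Pmm2*, *Ankmy2* and *Yif1a* (2.35 times for *Yif1a*), and the libraries titled KD were below both kinds of control. For *1190002F15Rik* the injection controls were below the floxed controls (3.21 and 1.99 FPKM) and the libraries titled KD above both, and the same order held for *Ctag2* (1.32 and 0.360 FPKM in floxed controls). Over 8097 genes the median difference between injection and floxed controls was 0.04 on the log2 scale. The experiments differ in injection and culture, and the paper's methods do not say which females gave the injected embryos. What each of these adds cannot be told apart.

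The copies of *Gm3286* behaved less sharply. *D5Ertd577e* had 12.3 and 14.7 FPKM in libraries titled KD and 28.5 and 23.9 FPKM in injection controls. *E330014E10Rik* had 10.9 and 14.3 FPKM and 25.4 and 21.1 FPKM. Both were lower in the libraries titled KD, with a smaller gap than *Gm3286*, and only these 2 of the 5 copies are in the table. *Cdkn1b*, the neighbour of *1190002F15Rik*, had 0.410 and 0.468 FPKM in libraries titled KD and 0.327 and 0.704 FPKM in injection controls, so its groups overlapped.

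Marker genes moved between the injected groups too. The 7 oocyte markers summed to 9002 to 10461 FPKM in libraries titled KD and to 14859 to 16291 FPKM in injection controls, almost all of it *Dppa3* (8304 and 9714 FPKM against 15796 and 14094 FPKM), while *Bmp15*, *Nlrp5* and *Mos* were higher in the libraries titled KD. The 7 markers of the 2-cell stage summed to 503 to 554 FPKM against 171 to 220 FPKM. Of 9 blood and immune markers the sum was 124 to 150 FPKM in libraries titled KD and 56.2 to 82.0 FPKM in injection controls, almost all of it *Hba-a1* (111 and 138 FPKM against 69.6 and 48.4 FPKM), with 3 of the 9, *Hbb-b1*, *S100a8* and *S100a9*, at 0 in all 4 libraries. Of 7 oviduct markers the sum was 41.0 to 46.0 FPKM against 60.5 to 66.9 FPKM, almost all of it *Epcam* (38.2 and 43.6 FPKM against 66.0 and 58.5 FPKM), while *Krt8*, *Krt18* and *Krt19* were higher in the libraries titled KD. Of 9 male germ cell markers the sum was 30.2 to 31.9 FPKM against 23.4 to 24.9 FPKM. The summed FPKM of all genes was 236616 to 259394 in libraries titled KD and 307468 to 330831 in injection controls. The part of any of these in the members' differences was not tested.

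In the oKO experiment the labels were first checked on the targeted gene. *Tardbp* stood at 0.884 to 4.84 FPKM in the 10 oKO libraries and at 6.14 to 20.3 FPKM in the 10 control libraries, and was lower in both oKO libraries at every stage. Each of the 7 oocyte markers reached 1 FPKM in at least 1 library of every one of these groups. The number of reads behind a value is not known from FPKM, so no counting error can be given.

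L2C is the stage at which *Pmm2*, *Ankmy2*, *Usp22* and *1190002F15Rik* are highest in controls. There the median difference of all genes tested between oKO and control was -0.79, and 40.5% were called lower. The genes lower in the libraries titled KD lay on this common side, with both oKO libraries below both control libraries. The share of all genes with such an order was not counted, so this order is no result about the members. *Ankmy2* stood at 0.353 and 0.605 FPKM in oKO embryos, against 8.74 and 10.6 FPKM in control embryos. *Pmm2* stood at 0.334 and 0.525 FPKM in oKO embryos, against 6.63 and 5.09 FPKM in control embryos. Each of these transcripts was thus below 1 FPKM in oKO and well above it in control. *Yif1a* had 1.57 and 1.65 FPKM in oKO embryos and 9.03 and 13.2 FPKM in control embryos. *Usp22* had 4.92 and 4.64 FPKM in oKO embryos and 14.7 and 14.8 FPKM in control embryos. *Gm3286* had 12.6 and 10.5 FPKM in oKO embryos and 15.9 and 15.5 FPKM in control embryos, a narrow gap.

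In limma's test over 7760 genes, on log2(FPKM + 1) with Benjamini-Hochberg adjustment, *Ankmy2* fell by 2.85 (SE 0.29, adjusted p = 7.7e-07), *Pmm2* fell by 2.26 (SE 0.31, adjusted p = 1.56e-05), *Yif1a* fell by 2.19 (SE 0.35, adjusted p = 6.32e-05) and *Usp22* fell by 1.44 (SE 0.26, adjusted p = 0.000149). *Gm3286* had a log2 difference of -0.41 (SE 0.33, adjusted p = 0.279) and was not called. Calls needed an adjusted p no higher than 0.05 together with a 2-fold change. At this stage 40.5% of all genes tested were called lower in oKO embryos and 6.69% higher, so 4 of 5 is to be read against a common direction. The median difference of all genes was -0.79. Minus this median the difference of *Ankmy2* was -2.06, at percentile 1.04 of all genes tested, and that of *Pmm2* -1.47, at percentile 4.87. *Ankmy2* and *Pmm2* passed the filter on low values through the control group alone, so their tests and percentiles are descriptions and no support for a change. For *Yif1a* it was -1.40, at percentile 5.58, and for *Usp22* -0.65, at percentile 22.8. For *Gm3286* it was 0.38, at percentile 65.6, so *Gm3286* fell less than the median gene.

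The 4 genes higher in the libraries titled KD did not share a direction in oKO embryos on FPKM as deposited. *Wbp5* stood at 2.89 and 4.30 FPKM in oKO L2C, against 0.485 and 0.552 FPKM in control L2C. It rose by 1.58 on the log2 scale (SE 0.34, adjusted p = 0.000686, limma) and was at percentile 97.1. *Wbp5* passed the filter on low values through the oKO group alone, so its test and percentile are descriptions and no support for a change. Its level in oKO embryos remained below that of the libraries titled KD. *B4galt4* had 2.82 and 4.37 FPKM in oKO embryos and 3.06 and 3.56 FPKM in control embryos, with a difference of 0.07 (SE 0.23, adjusted p = 0.789, limma). *1190002F15Rik* had 1.82 and 2.44 FPKM in oKO embryos and 3.21 and 1.99 FPKM in control embryos, with a difference of -0.19 (SE 0.33, adjusted p = 0.634, limma), and the groups of both genes overlapped. Minus the median of all genes, *B4galt4* was at 0.86 (percentile 79.6) and *1190002F15Rik* at 0.60 (percentile 72.8), so both lay above the median gene, as *Wbp5* did. *Ctag2* was listed at 0 and 0.0960 FPKM in oKO embryos, against 1.32 and 0.360 FPKM in control embryos, which is the side opposite to the libraries titled KD. Its mean was under 1 FPKM, so it was not tested.

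In all, 5 of the 8 members tested were called at L2C, where 47.2% of all genes were. *Wbp5*, *Pmm2* and *Ankmy2* passed the filter on low values through only 1 of the 2 groups. Neither their tests nor their count is therefore support for a change, of each gene or of the members as a set. FPKM totals were 124265 to 126713 in oKO L2C and 209102 to 215926 in control L2C, and the direction of the bulk of genes depends on the scale. After median-ratio scaling the calls were 1502 higher and 1349 lower with a median of -0.05, and after quantile normalization 1486 higher and 1637 lower with a median of -0.16, against 519 higher and 3140 lower on FPKM as deposited. *Wbp5*, *Pmm2*, *Ankmy2* and *Yif1a* kept their direction and their call on both scales. *Usp22* lost its call on both (-0.69, adjusted p = 0.106, and -0.77, adjusted p = 0.0921, limma). *B4galt4* was called higher after quantile normalization (1.07, adjusted p = 0.0102, limma), and the signs of *1190002F15Rik* and *Gm3286* turned. The 2-cell marker sum was 236 to 267 FPKM in oKO L2C and 47.7 to 50.1 FPKM in control L2C, and its part in these differences was not tested.

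**Figure D2:**
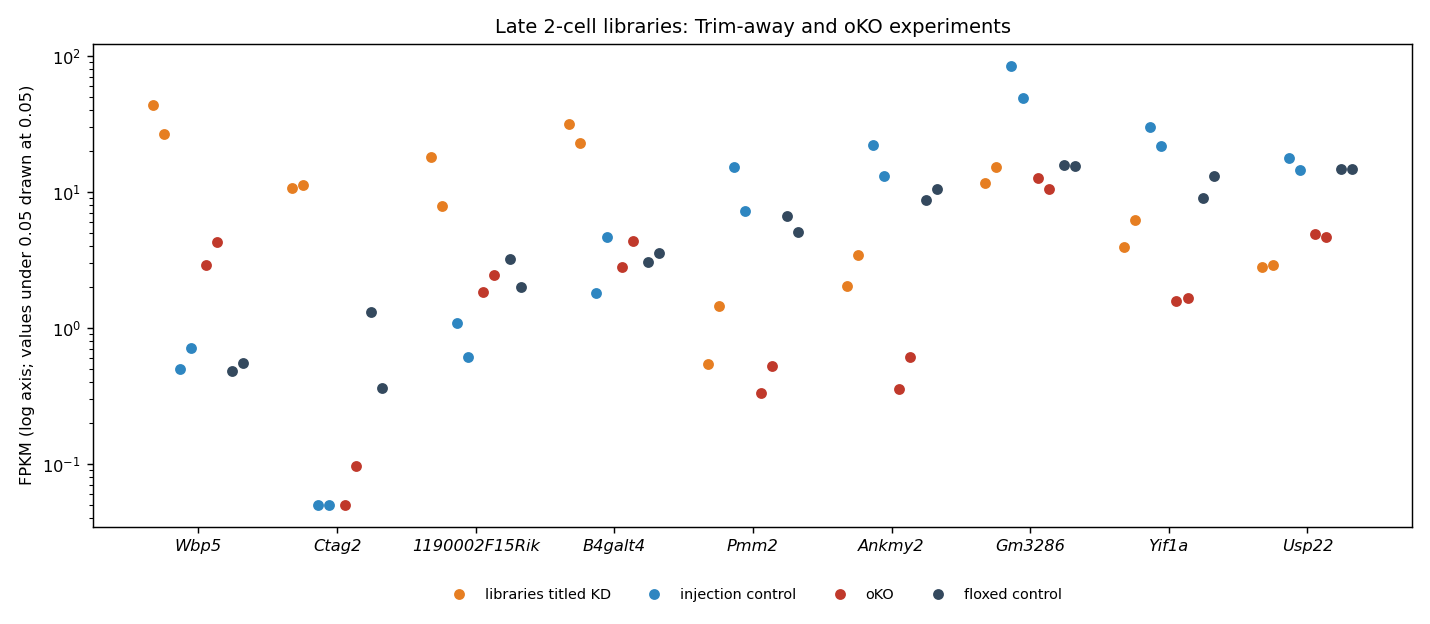
Level of each member in the 8 late 2-cell libraries on a logarithmic FPKM axis, with values under 0.05 drawn at 0.05. Points are libraries, from left to right those titled KD, injection control, oKO and floxed control. For Pmm2, Ankmy2, Yif1a and Usp22 the KD and oKO points lie below both kinds of control, and for Wbp5 above both. The KD and oKO points of Gm3286 are also below both, with a narrow gap to the floxed controls.

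**Figure D3:**
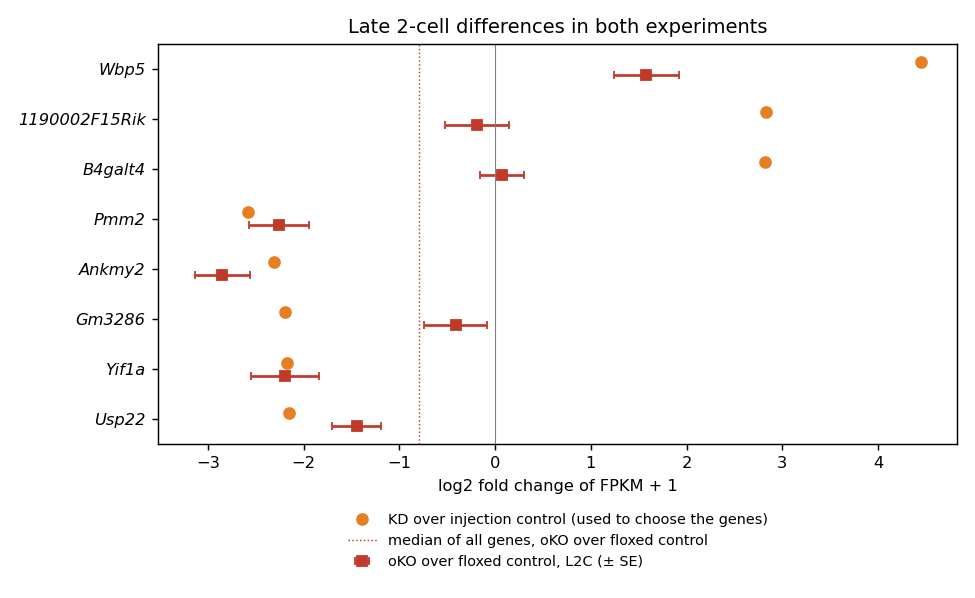
Log2 fold change of FPKM + 1 for 8 members, with KD over injection control as circles, which is the difference that chose the genes and has no test, and oKO over floxed control at L2C as squares with bars of 1 SE. The dotted line is the median of all genes tested in oKO L2C, -0.79, and Ctag2 is left out because its injection controls are at 0.

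Set side by side, the differences of *Pmm2* were -2.58 in libraries titled KD over injection control and -2.26 in oKO over floxed control. For *Ankmy2* they were -2.30 and -2.85, for *Yif1a* -2.17 and -2.19 and for *Usp22* -2.15 and -1.44. These 4 genes share a sign in the plot of both experiments and were called in oKO. *Gm3286* (-2.20 and -0.41), *1190002F15Rik* (2.83 and -0.19) and *B4galt4* (2.81 and 0.07) were not called in oKO, and *Wbp5* has the same sign with unlike sizes (4.45 and 1.58). The difference between the experiments was not tested, since 1 of the 2 values chose the genes. The first values go by the titles.

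Before L2C the only member called in oKO was *B4galt4*. At E2C *B4galt4* stood at 12.9 and 21.3 FPKM in oKO embryos, against 50.9 and 58.5 FPKM in control embryos. It fell by 1.66 on the log2 scale (SE 0.28, adjusted p = 0.00105, limma), the 1 call among 4 members tested, where 9.72% of all genes were called, 6.74% lower. Marker sums moved at this stage too, with 223 to 686 FPKM of 2-cell markers in oKO E2C and 1089 to 1237 FPKM in control E2C, and 26029 to 30019 FPKM of oocyte markers in oKO E2C and 18750 to 23622 FPKM in control E2C, and their part in the change was not tested. The galactosyltransferase was also below control in both oKO libraries at each earlier stage. At FGO it had 107 and 101 FPKM in oKO oocytes and 145 and 158 FPKM in control oocytes (-0.53, SE 0.16, adjusted p = 0.0489, limma). At MII it had 13.4 and 16.6 FPKM in oKO oocytes and 17.2 and 17.5 FPKM in control oocytes (-0.20, SE 0.17, adjusted p = 0.459, limma). At 1C it had 52.4 and 55.9 FPKM in oKO embryos and 94.2 and 80.4 FPKM in control embryos (-0.67, SE 0.17, adjusted p = 0.0151, limma). The FGO and 1C differences passed the adjusted p but were under 2-fold, so neither is a call.

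*Wbp5* had a difference of 1.22 at E2C (SE 0.40, adjusted p = 0.0611, limma), with 4.65 and 1.37 FPKM in oKO embryos against 0.770 and 0.396 FPKM in control embryos. At E2C this gene passed the filter on low values through the oKO group alone, so its test there is no support for a change. It missed the threshold in the main fit and passed it after median-ratio scaling (adjusted p = 0.0344, limma) and with the replicate block (adjusted p = 0.0228, limma). With a pseudocount of 5 it was 0.49 and not called (adjusted p = 0.135, limma). Without oKO replicate 1, the higher oKO library, the difference was 0.59, and without oKO replicate 2 it was 1.84. The size of the *Wbp5* difference at E2C thus leans on 1 library. At 1C it had 5.18 and 4.67 FPKM in oKO embryos and 3.40 and 2.61 FPKM in control embryos, and at MII 6.90 and 5.44 FPKM in oKO oocytes and 4.71 and 4.07 FPKM in control oocytes. The libraries do not overlap at either stage, and neither difference was called (adjusted p = 0.123 and 0.272, limma). At FGO they overlapped, with 6.86 and 4.90 FPKM in oKO oocytes and 7.45 and 5.67 FPKM in control oocytes.

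At FGO, MII and 1C none of the 6, 4 and 4 members tested was called, where 2.95%, 5.5% and 4.12% of all genes were called by limma. At an unadjusted p under 0.05 there were 1 at FGO (*B4galt4*), 0 at MII and 2 at 1C (*Wbp5* and *B4galt4*). Members below 1 FPKM on average were not tested, among them *Yif1a* at MII, with 1.19 and 1.33 FPKM in oKO oocytes and 0.0366 and 0.184 FPKM in control oocytes. *Ctag2* at E2C was at 0 and 0.263 FPKM in oKO embryos and at 1.90 and 1.11 FPKM in control embryos, and *Pmm2* at 0.173 and 0.0998 FPKM and at 0.626 and 0.622 FPKM. Both are on the side they have at L2C. The counts of all genes called moved when 1 library was left out. They were 412 in place of 263 at FGO without control replicate 1, 271 in place of 435 at MII without oKO replicate 2 and 181 in place of 338 at 1C without oKO replicate 1. At E2C they were 169, 212 and 1076 in place of 647 without control replicate 1, control replicate 2 and oKO replicate 2. Higher and lower calls were 198 and 449 at E2C and 139 and 199 at 1C, and after median-ratio scaling 317 and 446 at E2C and 152 and 109 at 1C. Quantile normalization gave 378 and 402 at E2C and 223 and 163 at 1C.

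The effect of oKO at L2C differed from that at E2C for 5 of the 8 members tested, where 36.0% of all genes were called in the same contrast, 7.75% higher and 28.2% lower. For *Ankmy2* the effect at L2C minus that at E2C was -3.19 (SE 0.43, adjusted p = 4.9e-05, limma). For *Yif1a* it was -2.25 (SE 0.53, adjusted p = 0.00349), for *Pmm2* -1.74 (SE 0.48, adjusted p = 0.00937) and for *Usp22* -1.62 (SE 0.39, adjusted p = 0.00376). *B4galt4* went the other way with 1.73 (SE 0.35, adjusted p = 0.00112). The galactosyltransferase was below control at E2C and level with it at L2C. *Ankmy2* overlapped its control at E2C and was below it at L2C. *Pmm2*, *Yif1a* and *Usp22* were below control at L2C but averaged only 0.624, 0.487 and 0.766 FPKM in control E2C. A decrease at E2C could hardly show for them on this scale. *Pmm2* was in fact below control in both E2C libraries (0.173 and 0.0998 FPKM in oKO against 0.626 and 0.622 FPKM). The call of *Pmm2* was lost without E2C control replicate 1, E2C control replicate 2 or L2C control replicate 1 (adjusted p = 0.052, 0.0539 and 0.055, limma), and that of *Usp22* on either other scale. With a pseudocount of 0.1 the calls of *Pmm2*, *Yif1a* and *Usp22* were lost (adjusted p = 0.231, 0.214 and 0.0805, limma), and with a pseudocount of 5 *Pmm2* was under 2-fold (-0.87). *Pmm2* passed the filter on low values through control L2C alone. Its test is therefore a description, and the count of 5 is no support for a change of the members as a set. Higher and lower calls over all genes were 607 and 2213, against 1329 and 955 after median-ratio scaling and 1202 and 1342 after quantile normalization.

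**Figure D4:**
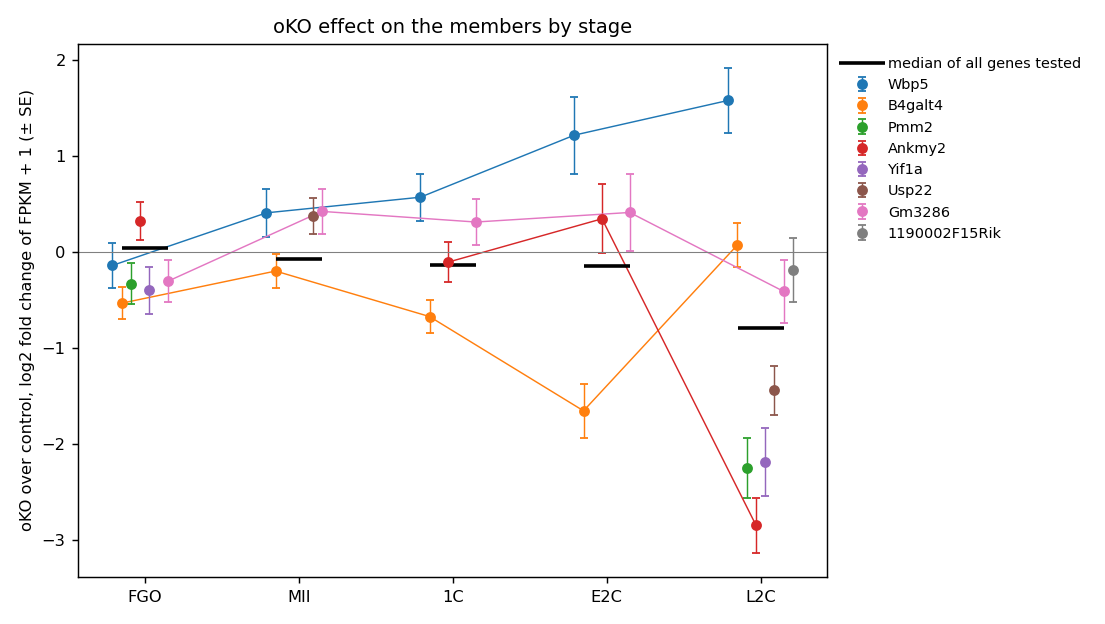
Effect of oKO over control as log2 fold change of FPKM + 1 with bars of 1 SE, for members with a mean of at least 1 FPKM at the stage, over the 5 stages. Thin lines join neighbouring stages where the gene was tested at both, and black bars are the median of all genes tested. B4galt4 is lowest at E2C and back near 0 at L2C, where Ankmy2, Pmm2, Yif1a and Usp22 lie below the black bar.

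The members differ in their normal course. In control libraries *Usp22* was at 0.456 to 1.38 FPKM through FGO, MII, 1C and E2C, and at 14.7 and 14.8 FPKM at L2C. It was 3.16 higher at L2C than at E2C on the log2 scale (SE 0.27, adjusted p = 4.01e-08, limma), the largest such increase among the 8 members tested. *Usp22* passed the filter on low values through L2C alone, so this test and its rank are descriptions. *Ankmy2* stood at 0.898 and 0.825 FPKM at FGO, 0.186 and 0.317 FPKM at MII, 2.27 and 2.07 FPKM at 1C, 1.35 and 1.36 FPKM at E2C and 8.74 and 10.6 FPKM at L2C. The cilium-related gene was called higher at 1C than at MII (1.34, SE 0.21) and at L2C than at E2C (2.17, SE 0.30). In the first of these steps it passed the filter through 1C alone, so that call is a description. *1190002F15Rik* was at 0 to 1.11 FPKM in the 8 control libraries before L2C and at 3.21 and 1.99 FPKM there.

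The measured levels of *Pmm2* and *Yif1a* were higher in control FGO and at L2C than at MII, where both were very low. Whether the RNA itself or its capture in the libraries differed between stages was not tested. *Pmm2* had 3.45 and 1.42 FPKM at FGO, 0.292 and 0.0413 FPKM at MII, 0.551 and 0.594 FPKM at 1C, 0.626 and 0.622 FPKM at E2C and 6.63 and 5.09 FPKM at L2C. *Yif1a* had 32.6 and 21.3 FPKM at FGO, 0.0366 and 0.184 FPKM at MII, 1.00 and 1.00 FPKM at 1C, 0.577 and 0.396 FPKM at E2C and 9.03 and 13.2 FPKM at L2C. *Yif1a* fell by 4.63 at MII relative to FGO (SE 0.25, adjusted p = 9.37e-11, limma) and was 3.01 higher at L2C than at E2C (SE 0.37, adjusted p = 2.35e-06, limma). *Pmm2* was also called lower at MII than at FGO (adjusted p = 1.72e-05, limma), a change that was under 2-fold after quantile normalization (-0.91) and with a pseudocount of 5 (-0.51), and was 2.07 higher at L2C than at E2C (SE 0.33). Both genes passed the filter on low values through FGO alone for MII against FGO and through L2C alone for L2C against E2C. These tests are therefore descriptions. In oKO, *Yif1a* stood at 19.5 and 19.9 FPKM at FGO and at 1.57 and 1.65 FPKM at L2C, below both floxed controls at either stage.

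*B4galt4* and *Wbp5* were highest in control FGO. Control *B4galt4* stood at 145 and 158 FPKM at FGO, 17.2 and 17.5 FPKM at MII, 94.2 and 80.4 FPKM at 1C, 50.9 and 58.5 FPKM at E2C and 3.06 and 3.56 FPKM at L2C. It was 2.26 higher at 1C than at MII (SE 0.17, adjusted p = 2.77e-08, limma), and it fell by 3.69 at L2C relative to E2C (SE 0.24, adjusted p = 2.56e-09, limma). The measured level of the galactosyltransferase transcript was thus low in control embryos at L2C, the stage at which the libraries titled KD held 31.7 and 23.0 FPKM. Control *Wbp5* was at 7.45 and 5.67 FPKM at FGO, 4.71 and 4.07 FPKM at MII, 3.40 and 2.61 FPKM at 1C, 0.770 and 0.396 FPKM at E2C and 0.485 and 0.552 FPKM at L2C. It fell by 1.34 at E2C relative to 1C (SE 0.32, adjusted p = 0.00182, limma), a change that was under 2-fold on the other 2 scales and had an adjusted p of 0.0523 without E2C control replicate 2. In that step *Wbp5* passed the filter through 1C alone, so its test is a description. *Ctag2* was at 0 in the 4 control oocyte libraries, at 0.0921 and 0 FPKM at 1C, at 1.90 and 1.11 FPKM at E2C and at 1.32 and 0.360 FPKM at L2C. *Gm3286* went down and up, with 33.4 and 48.9 FPKM at FGO, 12.2 and 8.09 FPKM at MII, 23.2 and 33.1 FPKM at 1C, 6.30 and 4.09 FPKM at E2C and 15.9 and 15.5 FPKM at L2C.

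Between L2C and E2C controls, 7 of 8 members tested were called, 6 higher and *B4galt4* lower, where 62.5% of all genes were called, 39.6% higher and 22.9% lower. Of the 8, *1190002F15Rik*, *Pmm2*, *Yif1a* and *Usp22* passed the filter on low values through L2C alone and *Ctag2* through E2C alone, and for L2C against MII 5 members passed through 1 group, so these counts are no support for a change of the members as a set. The tests of these genes in these steps are descriptions too. The call of *1190002F15Rik* (1.12, SE 0.35) was lost without E2C control replicate 1 or L2C control replicate 1 (adjusted p = 0.181 and 0.105, limma), after quantile normalization (0.74, adjusted p = 0.142) and with a pseudocount of 0.1 (adjusted p = 0.215), and was under 2-fold with a pseudocount of 5 (0.42). Between L2C and MII controls 7 of 8 were called, where 64.8% of all genes were (28.3% higher and 36.5% lower), with *Wbp5* and *B4galt4* lower, 5 higher and *Gm3286* not called. In the other steps the calls were 4 of 5 at MII against FGO, all lower (35.9% of all genes, 7.96% higher and 27.9% lower), 3 of 4 at 1C against MII, all higher (25.5%, 14.4% higher and 11.1% lower), and 2 of 4 at E2C against 1C, both lower (45.5%, 8.26% higher and 37.2% lower). In these steps *Pmm2* and *Yif1a* passed the filter through FGO alone, *Ankmy2* through 1C alone and *Wbp5* through 1C alone, so their tests there are descriptions. Higher and lower calls over all genes at L2C against E2C were 3242 and 1870, and 2697 and 2482 after quantile normalization. At E2C against 1C they were 663 and 2987, and 1383 and 1226 after median-ratio scaling, which also turned the sign of *B4galt4*. At MII against FGO they were 686 and 2406, and 1932 and 1714 after quantile normalization, and at L2C against MII 2505 and 3229, and 3358 and 2136 after median-ratio scaling.

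Over the 20 libraries of the oKO experiment, the gene whose log2(FPKM + 1) was most like that of *Yif1a* among 4638 genes was *Coa7* (Pearson r = 0.971). For *B4galt4* it was *Dnajc14* (0.979), for *Usp22* *Pabpc1* (0.961), for *Pmm2* *Rrp15* (0.946), for *Ankmy2* *Etf1* (0.903) and for *Wbp5* *Tubb2a* (0.865). For *Gm3286* it was its own near-identical copy *E330014E10Rik* (0.973). These are descriptions over the same libraries and stages, and *Ctag2* and *1190002F15Rik* were under 5 FPKM in all 20.

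Other genes of the members' pathways were counted at L2C, where 40.5% of all genes tested were called lower in oKO embryos and 6.69% higher. Of 38 other genes of N-glycosylation and galactosylation, 22 were tested by limma, 10 were lower and 0 higher (12 and 0 at an unadjusted p under 0.05), with a median of -0.91 beside -0.79 for all genes. After median-ratio scaling 5 were lower and 0 higher. *Alg14*, a subunit of the enzyme that adds N-acetylglucosamine to the lipid-linked sugar, had 4.00 and 2.39 FPKM in oKO embryos and 27.6 and 24.3 FPKM in control embryos (-2.71, SE 0.25, adjusted p = 4.06e-07, limma). *Pmm1*, the paralogue of *Pmm2*, had 10.5 and 4.46 FPKM in oKO embryos and 47.2 and 51.7 FPKM in control embryos (-2.67, SE 0.43, adjusted p = 6.91e-05, limma). Both enzymes were lower in the libraries titled KD as well. *Pmm1* had 31.4 and 32.6 FPKM there and 61.1 and 48.1 FPKM in injection controls, a narrower gap than that of *Pmm2*.

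Of 36 genes of transport between ER and Golgi, 31 were tested by limma, 17 were lower and 0 higher (24 and 1 at an unadjusted p under 0.05), with a median of -1.26. *Yif1b*, the paralogue of *Yif1a*, had 1.85 and 0.0778 FPKM in oKO embryos and 11.1 and 9.88 FPKM in control embryos (-2.71, SE 0.50, adjusted p = 0.000222, limma). *Cope*, a subunit of the COPI coat, had 1.82 and 2.33 FPKM in oKO embryos and 13.0 and 12.9 FPKM in control embryos. It was also lower in the libraries titled KD, with 4.47 and 5.26 FPKM against 17.1 and 15.5 FPKM in injection controls. After median-ratio scaling the list had 6 lower and 3 higher.

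Of 21 SAGA genes, 14 were tested by limma, 7 were lower and 0 higher (9 and 0 at an unadjusted p under 0.05), with a median of -1.04. They are *Atxn7* (-2.00), *Sf3b5* (-1.98), *Taf12* (-1.51), *Taf5l* (-1.39), *Taf9* (-1.30), *Kat2a* (-1.25) and *Supt7l* (-1.25), of which *Sf3b5* is also a subunit of the U2 snRNP and *Taf9* and *Taf12* of TFIID. After median-ratio scaling 2 SAGA genes were lower. Of 18 genes of cilium and hedgehog signalling 4 were tested and 3 were lower, *Ift88* (-1.04), *Gli3* (-1.04) and *Fkbp4* (-2.06), the last an Hsp90 co-chaperone with 2.38 and 1.19 FPKM in oKO embryos and 9.69 and 11.1 FPKM in control embryos. Of 5 KEOPS genes 3 were tested and 2 were lower, *Tprkb* (-1.93) and *Lage3* (-1.26), the second with 26.0 and 18.0 FPKM in oKO embryos and 62.6 and 45.3 FPKM in control embryos. Of 10 Tceal and Bex genes 4 were tested, *Bex2* was higher (1.88) and *Bex1* lower (-1.44, 17.9 and 8.41 FPKM in oKO embryos and 38.8 and 32.1 FPKM in control embryos), and after median-ratio scaling 2 genes of this list were higher and 0 lower, so the lower call of *Bex1* did not hold on that scale. The share of a list called is near that of all genes for several of these lists, and nothing is taken as particular to one.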

How the data were processed

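RNA-seq values of 24 libraries (12 groups of 2) were used. The 16 Stacc-seq samples were not analysed here. FPKM were used as deposited by the authors. Smart-seq2 libraries were trimmed with Cutadapt, mapped to mm9 with HISAT2 and quantified over RefSeq genes, per the paper. Versions given in the submitters' processing notes are 2.1.2 for StringTie, 2.2.1 for HISAT2 and 0.6.6 for Trim Galore. FPKM depend on the other genes of a library, and read depth is unknown. Of 24085 genes listed, 2 without values and 27 with names turned into dates were left out.

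Tests were run on log2(FPKM + 1) for genes averaging at least 1 FPKM in the libraries of a comparison, a scale that understates changes of low genes. limma 3.58.1 (R 4.3.3, trend, robust, 1 weight per stage) was fitted to the 20 libraries of the oKO experiment, with 10 residual degrees of freedom. The authors' test, DESeq2, needs counts. The 4 injected libraries were left out because they chose the members. P-values were adjusted by Benjamini-Hochberg over all genes tested and measure the spread between these libraries, since the labels do not say that the pools of a group came from separate females. An exact permutation test of 2 against 2 libraries cannot go below 0.333. The fit was tested on simulated data, in which the changed genes stood above the filter in control and had no common direction. The rates below therefore do not cover members low in control, such as *Wbp5* at L2C (0.518 FPKM), or the common shift seen at L2C. Changes of 1.5 on the log2 scale were recovered for 71% of changed genes at E2C and 86% at L2C, and for 97 to 99% at the other stages. For changes of 2 it was 88% at E2C and 99% at L2C. Unchanged genes called were 28 among 6868 genes at E2C and 23 among 8034 at L2C.

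The members, gene lists and rules were chosen with earlier results of these data known. Genes named beside the members are, per list, at most 3 called genes of at least 5 FPKM with the largest change and no overlap, the gene most like each member, marker genes, *Tardbp*, *Trim21*, and the copies and neighbour of 2 members, which with *Bex2*, *Tprkb*, *Ift88*, *Gli3*, 4 SAGA genes and the single markers named were chosen after their values were seen. Copies were searched with blastn 2.17.0 in Gencode vM1 transcripts. Promoters are from RefSeq. Alternatives were pseudocounts of 0.1 and 5, a filter at 5 FPKM or none, median-ratio scaling, quantile normalization, no weights, all 24 libraries, the replicate block, leaving out each library and no 2-fold threshold.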

Additional observations from a re-analysis of the deposited data

Results flagged for a closer look

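The first 5 results are listed because the oKO effect at L2C differed from that at E2C by limma's test of the difference itself, on the log2 scale of FPKM + 1. The effect at L2C minus that at E2C was 1.73 for *B4galt4* (adjusted p = 0.00112), which had 12.9 and 21.3 FPKM in oKO E2C against 50.9 and 58.5 FPKM in control E2C and overlapped its control at L2C. It was -3.19 for *Ankmy2* (adjusted p = 4.9e-05), -2.25 for *Yif1a* (adjusted p = 0.00349), -1.74 for *Pmm2* (adjusted p = 0.00937) and -1.62 for *Usp22* (adjusted p = 0.00376). With a pseudocount of 0.1 the calls of *Yif1a*, *Pmm2* and *Usp22* were lost (adjusted p = 0.214, 0.231 and 0.0805), and that of *Usp22* also after median-ratio scaling (adjusted p = 0.115) and quantile normalization (adjusted p = 0.0509). In the same contrast 36.0% of all genes were called. *Pmm2*, *Yif1a* and *Usp22* averaged 0.624, 0.487 and 0.766 FPKM in control E2C, so a decrease at that stage could hardly show for them. *Pmm2* passed the filter on low values through control L2C alone, so its test is a description.

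*Ctag2* is listed because its libraries lay below their controls in oKO L2C and above them in the libraries titled KD. Its highest oKO L2C library was at 0.0960 FPKM, below both floxed controls (1.32 and 0.360 FPKM), while the libraries titled KD (10.6 and 11.3 FPKM) were above both injection controls, listed at 0. Its mean in the oKO and floxed L2C libraries was under 1 FPKM, near the floor, and the difference of the libraries titled KD is the one that chose the gene. This difference between the experiments was not tested, and the second direction goes by the titles.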

How the results depend on the processing

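Of the alternatives to the members' values with a test, 775 kept direction and side of the threshold, 28 fell short of it, 11 newly passed it and 22 changed sign. The numbers of all genes called moved by over 1.5 times under some settings, because a higher pseudocount shrinks low genes and a filter tests fewer. With a pseudocount of 5 they were 85 at FGO (263 in the main fit), 165 at MII (435), 111 at 1C (338), 318 at E2C (647), 1722 at L2C (3659), 1670 for L2C minus E2C (2820), and in controls 1708 for MII against FGO (3092), 1003 for 1C against MII (2098), 1671 for E2C against 1C (3650), 2835 for L2C against E2C (5112) and 3401 for L2C against MII (5734). With a pseudocount of 0.1 they were 405 at FGO and 542 at 1C. With a filter at 5 FPKM they were 151 at FGO, 278 at MII, 177 at 1C, 406 at E2C, 2275 at L2C, 1600 for L2C minus E2C, and in controls 2084 for E2C against 1C, 2804 for L2C against E2C and 3354 for L2C against MII. Without the 2-fold threshold they were 876 at FGO, 1395 at MII and 1311 at 1C. Leaving out 1 library gave 189 to 412 at FGO, 271 to 571 at MII, 181 to 500 at 1C, 169 to 1076 at E2C, 3299 to 3801 at L2C and 1982 to 2974 for L2C minus E2C. The alternatives to the gene lists were chosen after seeing the data. After median-ratio scaling 5 genes were called for glycosylation, 9 for ER and Golgi, 2 for SAGA and 1 for cilium, and with the filter at 5 FPKM 3 for SAGA and 1 each for Tceal and Bex, KEOPS and cilium. Signs turned for values that were not called: *Ankmy2* at 1C (0.017, quantile normalization), *1190002F15Rik* at L2C (0.49 after median-ratio scaling and 0.67 after quantile normalization) and for L2C minus E2C (0.60 and 0.40), *Gm3286* at L2C (0.42 and 0.52), and in control E2C against 1C *B4galt4* (0.12, median-ratio scaling) and *Ankmy2* (0.075 and 0.22). Leaving out 1 library turned *Wbp5* (-0.35 to 0.065) and *Pmm2* (-0.77 to 0.11) at FGO, *Ankmy2* at E2C (-0.11 to 0.80), *B4galt4* (-0.17 to 0.32) and *1190002F15Rik* (-0.43 to 0.060) at L2C, and *Wbp5* (-0.26 to 0.99) and *1190002F15Rik* (-0.42 to 0.33) for L2C minus E2C. With a pseudocount of 5 the L2C changes of *Wbp5* (0.63) and *Pmm2* were under 2-fold, with adjusted p of 0.00805 and 6.1e-06 by limma, as were the control changes of *Ankmy2* at 1C against MII (0.45), *Wbp5* at E2C against 1C (-0.52), *Pmm2* at L2C against E2C (0.95) and *Wbp5* (-0.77) and *1190002F15Rik* (0.58) at L2C against MII. The labels do not say whether replicate numbers pair the samples. Correlations of replicate differences were -0.222 at FGO, -0.025 at MII, 0.215 at 1C, 0.093 at E2C and -0.008 at L2C, which does not settle it. The replicate block gave 237 calls at FGO, 660 at E2C and 3666 at L2C. It made *Wbp5* at E2C a call (1.22) while changing no other call of a member. The crossed pairing at FGO, also chosen after seeing the data, gave 274. With 2 libraries a group and unknown depth, a small difference of a gene near 1 FPKM was not detectable here, and FPKM cannot say whether total RNA changed.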
